A study of Mus musculus with 4 samples.

Results

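Within a single library of Sox11-treated mice, corticospinal nuclei rich in a vector transcript named BC102 were set against corticospinal nuclei in which no copy of it was counted. BC102 is 1 of 9 added entries of the gene table whose names start with BC, and the sources used here do not say what construct it belongs to. Nuclei were taken from the second Sox11 library if they held at least 8000 UMIs (unique molecular identifiers, each standing for 1 captured RNA molecule) of mouse genes, at least 1 UMI of Slc17a7, at least 1 UMI of Fezf2, Bcl11b or Crym, and none of Gad1 or Gad2. This gate kept 1432 of the 4383 barcodes of that library. Nuclei with 3 or more BC102 UMIs form the rich side, 665 nuclei, and nuclei with 0 form the free side, 498 nuclei. The remaining 269 gated nuclei held 1 or 2 BC102 UMIs and belong to neither side. All 4 libraries together hold 12582 barcodes.

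The study sequenced single nuclei from the brains of adult C57BL/6 mice, in 2 libraries of each of 2 groups. All animals had received AAV2-Retro in the cervical cord 2 weeks before collection, carrying Sox11 in the Sox11 group and a control in the Control group, whose treatment field reads None. Nuclei were freed from frozen tissue, sorted and made into 3′ libraries. The sources used here state neither how many animals, and of which sex, stand behind a library nor the promoter that drives Sox11.

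AAV2-Retro is an adeno-associated virus that is taken up at axon ends and carried back to the nucleus, so a cervical injection reaches brain neurons that project to the cord. Corticospinal neurons are the layer 5 pyramidal cells of the motor and sensory cortex that drive voluntary movement; they use the vesicular glutamate transporter Slc17a7 and depend on the transcription factors Fezf2 and Bcl11b for their fate. Sox11 is a SoxC transcription factor of immature neurons that falls to low levels in the adult cortex and has been used to promote the growth of corticospinal axons. A virus enters individual cells in differing amounts, and RNA from a vector is captured and counted beside the cell's own RNA when its sequence is added to the reference.

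BC102 separated the gated nuclei widely. The rich nuclei held 3 to 328 BC102 UMIs, with a median of 17 and quartiles of 9 and 29, and 16939 UMIs in all, out of 17262 in the whole gate. Just inside the limit lay 36 nuclei with 3 UMIs, and just outside it 54 nuclei with 2. A further 215 nuclei had 1 UMI, and the upper tail held 96 nuclei with 41 UMIs or more. The number of nuclei therefore fell from 0 through 1 to 2 UMIs and was spread broadly above. These counts are what the rule used and are not a finding.

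**Figure D1:**
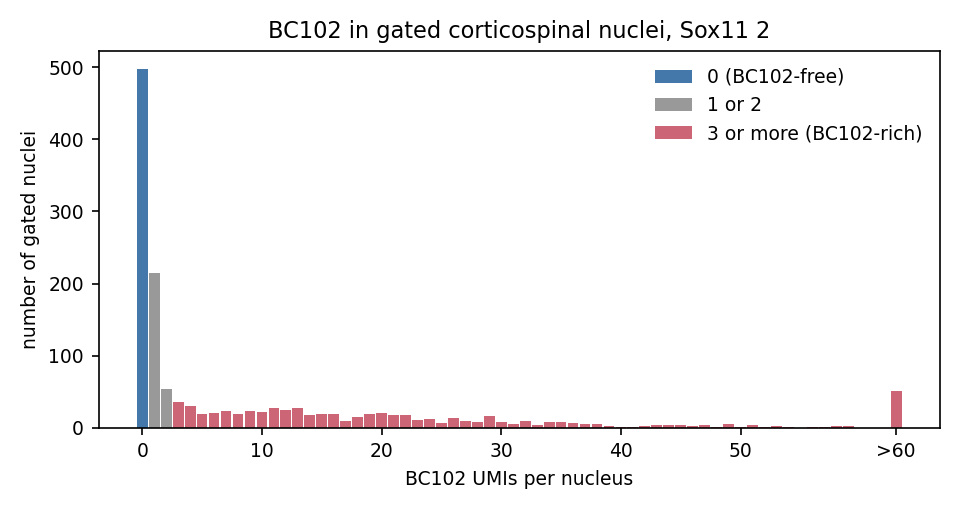
BC102 UMIs per gated nucleus of the second Sox11 library, with the number of nuclei on the y axis, the 2 sides and the nuclei left out coloured apart, and the highest counts pooled in the last bar. The 498 free nuclei stand at 0, and the 665 rich nuclei run from 3 to 328.

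BC102 was also counted outside the gate. Of 16 barcodes with at least 10 UMIs of Mbp, an oligodendrocyte myelin transcript, and without Slc17a7 or Slc17a6, 2 held at least 1 BC102 UMI (12.5%, exact Clopper-Pearson 95% interval 1.55% to 38.3%) at a median depth of 4055.5 gene UMIs. Of the 16, 0 held 3 or more, which allows a share of up to 18.8% by the limit of 3 counts and up to 20.6% by the exact interval. In the gate, 65.2% of nuclei held at least 1 and 46.4% held 3 or more, at a median depth of 19515.5. Among 693 deep barcodes with Slc17a6, the transporter of subcortical glutamate neurons, and without Slc17a7, 39.0% held 3 or more. Barcodes under 8000 gene UMIs carried 832 BC102 UMIs per 1000000 gene UMIs, above the 514 of the gated nuclei. At 1 or 2 BC102 UMIs, BC102 RNA of the nucleus and free RNA cannot be told apart in a single nucleus. All intervals given here cover counting error only.

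The rich and free nuclei differed somewhat in depth and in sex. The median was 19218 gene UMIs on the rich side and 20948.5 on the free side, and after each nucleus was thinned to 8000 UMIs the median number of genes detected was 2882 and 2833.5. Rich nuclei made up 45.9% of the gated nuclei with 8000 to 12000 gene UMIs and 43.9% of those with 26000 or more, with overlapping intervals (39.8% to 52.2% and 39.4% to 48.4%). Over the 4 depth ranges from shallow to deep, free nuclei made up 30.1%, 32.0%, 34.0% and 40.0%, and nuclei with 1 or 2 BC102 UMIs 23.9%, 18.5%, 18.9% and 16.1%. Nuclei with Xist, the RNA of the inactive X chromosome, and without a Y-linked transcript made up 49.3% of the rich side and 44.4% of the free side. Nuclei with a Y-linked transcript and without Xist made up 39.8% and 46.6%. A further 65 rich nuclei (9.77%) and 38 free nuclei (7.63%) held both kinds. No gated barcode was shared between libraries.

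The gating genes lay close on both sides. Levels are given as CPM, UMIs per 1000000 thinned gene UMIs of a side, and a ratio is always the rich level over the free level. Slc17a7 stood at 141 CPM in rich and 156 CPM in free nuclei, Bcl11b at 427 and 402, Fezf2 at 30.8 and 37.4, and Crym, a thyroid hormone binding protein of layer 5 neurons, at 73.5 and 63.8. Of 30 corticospinal and layer 5 identity genes, 22 could be compared, with a median log2 ratio of 0.02 against 0.03 over all genes. None of the 22, which include the gating genes, passed 2-fold (0.448% of all genes tested higher and 0.295% lower). The most unequal were S100a10 at 16.0 and 9.04 CPM, Neurod6, a transcription factor of cortical excitatory neurons, at 92.3 and 54.2, and Chst8 at 84.4 and 120. The mouse gene Sox11 itself was near the detection limit on both sides, with 14 UMIs in rich nuclei (2.63 CPM) and 16 in free nuclei (4.02 CPM). It stood at 3.65 CPM in the first Sox11 library and at 2.93 and 4.15 CPM in the Control libraries. Whether vector RNA would be counted under that gene is not given, so these values do not check the treatment label.

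Summed markers of other cells were low apart from the astrocyte and cortical layer lists, and several lists differed between the sides. Summed oligodendrocyte markers stood at 67.3 CPM in rich and 90.6 CPM in free nuclei, a ratio of 0.743 (0.640 to 0.862), and at 95.7 and 81.9 CPM in the Control libraries, so the rich side was the lowest of these. Microglial markers summed to 38.0 and 39.4 CPM, endothelial and mural markers to 3.38 and 3.51, and oligodendrocyte precursor markers to 1.13 and 1.76. The astrocyte sum of 239 and 218 CPM (ratio 1.10, 1.005 to 1.196) was almost all Slc1a2, at 237 and 216. Of the 8 astrocyte markers, 3 were at 0 on both sides. Markers of subcortical neurons summed to 14.3 and 16.6 CPM. Single genes of other cortical layers were less even, in both directions. Rorb, a layer 4 and 5 receptor, stood at 56.8 CPM in rich and 31.1 CPM in free nuclei. Foxp2, a layer 6 transcription factor, stood at 147 and 101, and Tshz2, a marker of near-projecting neurons, at 9.40 and 21.3. In the list that holds Rorb, 2 of the 5 compared genes had ratios above 1 and 3 below. Its sum was 175 and 152 CPM (ratio 1.15, 1.04 to 1.28). In the list that holds Foxp2 and Tshz2, 2 of 3 were above 1 and 1 below. That sum was 287 and 232 CPM (ratio 1.24, 1.14 to 1.34). The part of such cell differences in the gene results was not tested.

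Other vector entries were sparse. The vector entry named Sox11, which is separate from the mouse gene, had 6 UMIs in 4 rich nuclei and 0 in the 498 free nuclei, which allows a share of free nuclei with a UMI of up to 0.602% by the limit of 3 counts and up to 0.738% by the exact interval. The fluorophore entry mGL had at least 1 UMI in 10.8% of rich nuclei (8.57% to 13.4%) and 7.63% of free nuclei (5.46% to 10.3%). BC0 had 109 UMIs in 3 free nuclei, 97 of them in 1 nucleus, and 2 UMIs in rich nuclei. BC1 had 7 UMIs in rich and 2 in free nuclei, and BC101 and BC103 to BC107 had 0 on both sides. In the first Sox11 library BC102 had 0 UMIs, so its nuclei cannot be divided in the same way.

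Most genes were level between the sides, and a small set was not. Of 8486 genes with a mean level of at least 10 CPM over both sides, 38 were at least 2-fold higher in rich nuclei (0.448% of genes tested) and 25 at least 2-fold lower (0.295%). The middle 90% of all log2 ratios ran from -0.43 to 0.50. With 1 library there is no replicate check and no test of these ratios. Which genes pass 2-fold depends on the random thinning: another draw gave 39 and 22 genes, of which 21 and 11 were among the first 38 and 25. The genes lost in the second draw had mean levels of up to 83.2 CPM (higher) and 84.2 CPM (lower). The counts were 17 and 9 when a single BC102 UMI put a nucleus on the rich side, and 8 and 6 at a mean of at least 30 CPM. The genes described next are the 15 highest and 15 lowest ratios among genes with a mean of at least 20 CPM. Of these 15 higher genes, 2 stayed past 2-fold under all alternatives run for single genes, Vcan (2.96 to 8.04) and Gpc2 (2.49 to 5.14), and of the 8 lower genes past 2-fold, 0 did. Since the genes were chosen as the most unequal, intervals that lie apart follow in part from that choice and are no support.

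**Figure D2:**
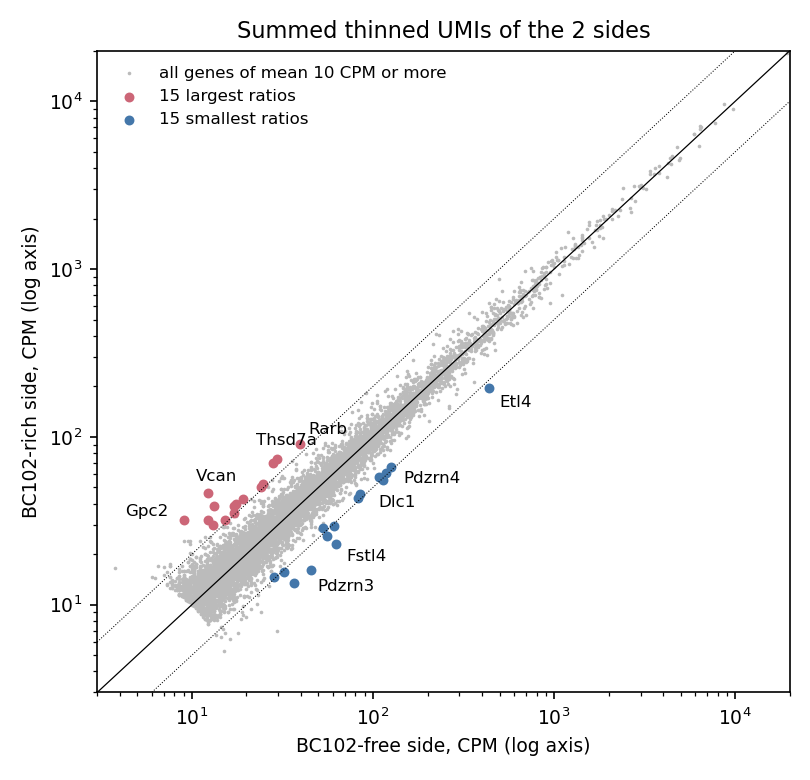
Level of each of 8486 genes in BC102-free (x axis) and BC102-rich nuclei (y axis), in CPM on log axes, with the 15 highest and 15 lowest ratios coloured, equality as a solid line and 2-fold as dotted lines. Most genes lie along the diagonal, with Vcan and Gpc2 above it and Etl4 and Fstl4 below it.

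The 2 highest ratios belonged to proteoglycan genes. Vcan encodes versican, a chondroitin sulfate proteoglycan of the extracellular matrix, and lies on chromosome 13 (89655312 to 89742509, minus strand, mm10). It stood at 46.2 CPM in rich nuclei (exact Poisson 95% interval 40.6 to 52.4) and 12.3 CPM in free nuclei (9.10 to 16.3), a ratio of 3.76 (exact conditional interval 2.76 to 5.22). At least 1 thinned Vcan UMI was found in 24.1% of rich and 8.03% of free nuclei, and without thinning in 37.7% and 15.1%. Gpc2 encodes glypican 2, a heparan sulfate proteoglycan of growing axons, on chromosome 5 (138273655 to 138280005, minus strand). It stood at 32.0 and 9.04 CPM, a ratio of 3.54 (2.46 to 5.22), with a UMI in 20.2% and 6.43% of thinned nuclei. Igsf9, an adhesion molecule of dendrites, had a ratio of 4.39 but a mean under 20 CPM and was singled out after its value was seen.

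The promoters of these 2 genes are shown with that of Pdzrn3, the gene at the other end of the ratios, so that the ends can be compared by sequence. Each window runs 5′ to 3′ on the gene's strand, from 250 bases before to 50 after the RefSeq start (GRCm38.p6), at chr13:89742463-89742762 for Vcan, chr5:138279888-138280187 for Gpc2 and chr6:101377848-101378147 for Pdzrn3, all on the minus strand. Capitals mark a match to ACAAAG or ACAATG, core letters bound by Sox proteins, on either strand.
Vcan: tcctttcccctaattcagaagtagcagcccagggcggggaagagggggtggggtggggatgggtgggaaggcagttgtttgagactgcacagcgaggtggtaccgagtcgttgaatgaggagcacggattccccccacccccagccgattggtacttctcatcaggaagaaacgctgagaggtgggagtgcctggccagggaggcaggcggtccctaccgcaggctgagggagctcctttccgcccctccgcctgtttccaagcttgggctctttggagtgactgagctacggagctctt
Gpc2: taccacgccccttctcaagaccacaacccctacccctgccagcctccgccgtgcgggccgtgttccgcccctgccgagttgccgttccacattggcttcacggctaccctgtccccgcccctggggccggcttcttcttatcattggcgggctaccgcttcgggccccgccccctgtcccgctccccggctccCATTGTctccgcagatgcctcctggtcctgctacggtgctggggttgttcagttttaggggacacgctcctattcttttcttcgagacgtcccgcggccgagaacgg
Pdzrn3: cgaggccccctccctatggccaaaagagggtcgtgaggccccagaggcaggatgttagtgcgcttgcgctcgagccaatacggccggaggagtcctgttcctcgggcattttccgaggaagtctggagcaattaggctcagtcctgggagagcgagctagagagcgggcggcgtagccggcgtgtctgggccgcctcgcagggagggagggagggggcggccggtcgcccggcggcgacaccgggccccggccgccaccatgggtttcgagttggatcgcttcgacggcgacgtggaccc
Only the Gpc2 window held a match, 1 copy of ACAATG read on the opposite strand, and 28.6% of 32851 promoter windows hold at least 1 match (ACAAAG 18.7%, ACAATG 12.6%). These letters in a window are a description and not a site.

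Several other genes higher in rich nuclei act in signalling, transcription and excitability. Bche, butyrylcholinesterase, on chromosome 3, stood at 38.5 CPM in rich and 13.3 CPM in free nuclei, a ratio of 2.90 (2.13 to 4.00). Thsd7a, a membrane protein with thrombospondin domains, on chromosome 6, stood at 73.7 and 29.4 CPM, a ratio of 2.51 (2.04 to 3.11). Rarb, a nuclear receptor for retinoic acid, on chromosome 14, had the highest rich level of the 15 genes, 90.4 CPM against 39.4, a ratio of 2.29 (1.91 to 2.77). Zfp57, a zinc finger protein that maintains methylation at imprinted genes, on chromosome 17, stood at 42.5 and 19.1 CPM, a ratio of 2.23 (1.71 to 2.93). Kcnmb2, an auxiliary subunit of large-conductance potassium channels, on chromosome 3, stood at 52.6 and 24.6 CPM, and Cacnb3, a subunit of voltage-gated calcium channels, at 50.6 and 24.1. Vav3, an exchange factor for small GTPases, stood at 38.5 and 17.1 CPM, and Chn2, which turns off the GTPase Rac, at 31.8 and 15.3.

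The rest of the 15 were Agbl1, a carboxypeptidase that trims glutamate chains from tubulin (ratio 2.07), Itprid1 (2.29) and 3 long noncoding RNAs, 2410018L13Rik (2.61), Gm29088 (2.27) and Gm32647 (2.47). Gm32647 is the weakest of these: a thinned UMI was found in 7.37% of rich and 6.22% of free nuclei, so its summed level came from few nuclei. Its ratio was 0.765 among nuclei with 8000 to 16000 gene UMIs and 0.741 without the nuclei scored highest as doublets.

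The lowest ratios included genes for a ubiquitin ligase, a secreted protein and a synaptotagmin. Pdzrn3, a ubiquitin ligase with PDZ domains on chromosome 6 (101149609 to 101377897, minus strand), stood at 16.2 CPM in rich nuclei (12.9 to 20.0) and 45.4 CPM in free nuclei (39.1 to 52.6), a ratio of 0.356 (0.272 to 0.462), which was 0.536 in another thinning draw and 0.710 against nuclei with 1 or 2 BC102 UMIs. Fstl4, a secreted follistatin-like protein on chromosome 11, stood at 22.9 and 62.8 CPM, a ratio of 0.365 (0.292 to 0.456). Syt17, an atypical synaptotagmin, stood at 13.5 and 36.6 CPM, and was detected in 9.47% of rich and 21.9% of free nuclei. Etl4, on chromosome 2 (19909780 to 20810713, plus strand), was the most abundant of the 15, at 195 CPM in rich (183 to 207) and 436 CPM in free nuclei (416 to 457), a ratio of 0.447 (0.413 to 0.483). It was found in 54.1% of rich and 72.9% of free nuclei.

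The other lower genes spanned adhesion, guidance and signalling. Tafa2, a secreted chemokine-like protein, stood at 25.6 and 55.7 CPM, and Pcsk1, a prohormone convertase, at 29.5 and 61.2. Unc5d, a netrin receptor, stood at 15.6 and 32.1 CPM and was found in only 4.06% of rich and 5.82% of free nuclei. Its ratio of 0.486 moved to 0.233 without the nuclei scored highest as doublets, to 0.773 with at least 2 of the 3 marker genes and to 0.987 against nuclei with 1 or 2 BC102 UMIs. Dlc1, which turns off small GTPases, stood at 55.3 and 113 CPM, and Ccnd2, cyclin D2, at 45.7 and 84.3. Pcdh15, a protocadherin, stood at 43.2 and 82.3 CPM, Maml3, a Notch coactivator, at 61.3 and 118, and Pdzrn4, a relative of Pdzrn3, at 66.5 and 126. Pdlim1, a PDZ and LIM domain protein of the actin cytoskeleton, had a ratio of 0.517 and Plxdc2 one of 0.540. Ratios of these 15 genes therefore ran from 0.356 to 0.542.

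The libraries that did not choose these genes place them relative to the treatment. Each was gated and thinned in the same way, which gave 1371 nuclei in the first Sox11 library and 982 and 843 in the Control libraries. Vcan stood at 31.3 CPM in the first Sox11 library and at 2.16 and 3.41 CPM in Control, so the free side, at 12.3, lay between the Control libraries and the rich side. Gpc2 stood at 34.6 CPM in the first Sox11 library, close to the rich side, and had 3 UMIs and 1 UMI in the Control libraries (0.382 and 0.148 CPM). Zfp57 stood at 32.2 CPM in the first Sox11 library and at 0.891 and 0.741 CPM in Control, against 19.1 on the free side. Thsd7a stood at 84.0 CPM in the first Sox11 library and at 9.67 and 8.30 CPM in Control, with the free side at 29.4. Rarb stood at 81.6 CPM in the first Sox11 library and at 23.2 and 25.9 CPM in Control. In each of these 5 genes the free side was above both Control libraries and below the first Sox11 library.

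As a group, 13 of the 15 higher genes were above both Control libraries in the first Sox11 library (45.9% of all genes tested), and 13 of 15 were above both in the free nuclei (37.9%). The Sox11 and Control libraries differ in Cell Ranger version as well as in treatment, and these cannot be told apart. The 2 Control libraries also differ from each other in sex transcripts. The Y-linked gene Ddx3y stood at 0 and 33.8 CPM in them and at 8.66 CPM in the first Sox11 library. The part of sex in these comparisons was not tested. Gm29088 went the other way, at 13.8 CPM in the first Sox11 library against 16.5 and 25.1 CPM in Control, and Gm32647 stood at 35.6 CPM there against 45.6 and 35.1 CPM.

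The lower genes showed the first pattern but not the second, where their share was that of all genes tested. In the first Sox11 library 12 of 15 were below both Control libraries (35% of all genes tested), while in the free nuclei 5 of 15 were (33.5%). Unlike that library, the free nuclei took part in choosing the genes. Etl4 stood at 258 CPM in the first Sox11 library and at 683 and 538 CPM in Control, with the free side at 436. Pdzrn4 stood at 58.3 CPM in the first Sox11 library and at 186 and 227 CPM in Control, with the free side at 126. Fstl4 stood at 33.7 CPM against 85.2 and 58.0 CPM, so that the free side, at 62.8, fell between the Control libraries. Pdzrn3 and Pcsk1 differed widely between the Control libraries themselves (59.95 and 25.1 CPM, and 61.9 and 35.1 CPM). Maml3 stood at 164 CPM in the first Sox11 library, above both Control libraries, opposite to its rich side.

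The nuclei with 1 or 2 BC102 UMIs, which chose none of these genes, were nearer on the log scale to the free than to the rich side in 13 of the 15 higher genes and in 13 of the 15 lower genes (57.4% of all genes tested). Vcan stood at 12.1 CPM in them, Gpc2 at 7.43 and Etl4 at 355. By amount of BC102, Vcan stood at 12.3 CPM in nuclei with 0 UMIs, 32.4 with 3 to 5, 30.1 with 6 to 10, 42.1 with 11 to 20, 47.3 with 21 to 40 and 83.3 with 41 or more. Zfp57 stood at 19.1 CPM with 0, 32.4 with 3 to 5 and 61.2 with 41 or more. Etl4 stood at 436 CPM with 0, 221 with 3 to 5, 249 with 6 to 10, 183 with 11 to 20, 208 with 21 to 40 and 112 with 41 or more, with no steady order between 3 and 40. Pdzrn4 stood at 126 CPM with 0, 63.2 with 3 to 5, 74.9 with 21 to 40 and 56.0 with 41 or more, so most of its difference lay at the step into the rich side. The highest bin was also the deepest before thinning, with a median of 23870 gene UMIs against 16937 in nuclei with 3 to 5 BC102 UMIs.

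**Figure D3:**
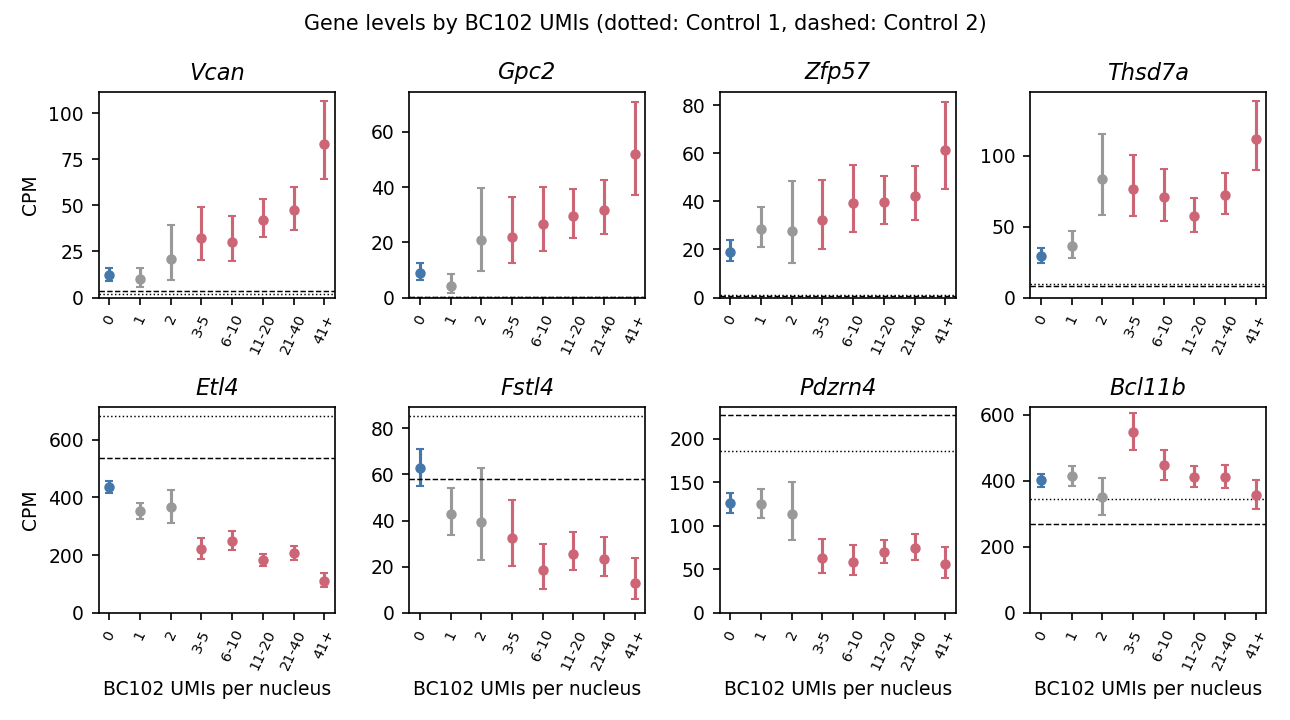
Level in CPM (y axis) of named genes by BC102 UMIs per nucleus (x axis, 8 bins), with exact Poisson 95% intervals as bars and the Control libraries as dotted and dashed lines. Vcan runs from 12.3 CPM at 0 UMIs to 83.3 CPM at 41 or more, and Etl4 from 436 to 112.

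A set of 24 genes that differed between the Sox11 and Control libraries was then followed nucleus by nucleus. These were chosen on the same libraries, so their direction is no independent evidence. The 12 that are higher in Sox11 libraries (Gpc2, Zfp57, Kcnk2, Kcnmb2, Chn2, Thsd7a, Soga1, Psd2, Cald1, Tox3, Etv4 and Vcan) summed to a mean of 3.30 UMIs per thinned rich nucleus (median 3) and 1.43 per free nucleus (median 0). The first Sox11 library averaged 4.28 (median 4), and the Control libraries 0.344 and 0.287 (medians 0). The sums over the sides had a ratio of 2.31 (2.12 to 2.52). No UMI of the 12 genes was counted in 22.3% of rich nuclei, 51.6% of free nuclei and 79.6% and 81.7% of the Control nuclei.

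A sum of 5 or more lay above the 99th percentile of the Control nuclei. It was reached by 29.0% of rich nuclei (25.6% to 32.6%), 9.44% of free nuclei (7.02% to 12.4%), 13.8% of the nuclei with 1 or 2 BC102 UMIs (9.87% to 18.5%) and 42.4% of the first Sox11 library (39.7% to 45.0%). In the Control libraries 1.32% and 0.593% reached it. The limit divides a continuous range, with 162 rich and 53 free nuclei within 1 UMI of it. The rich interval lay above the free interval, but both cover counting error only, and the 12 genes were chosen on these libraries. Of the 277 gated nuclei of this library at or above the limit, 193 were rich (69.7%) and 47 free (17.0%), against 46.4% and 34.8% of the gate.

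**Figure D4:**
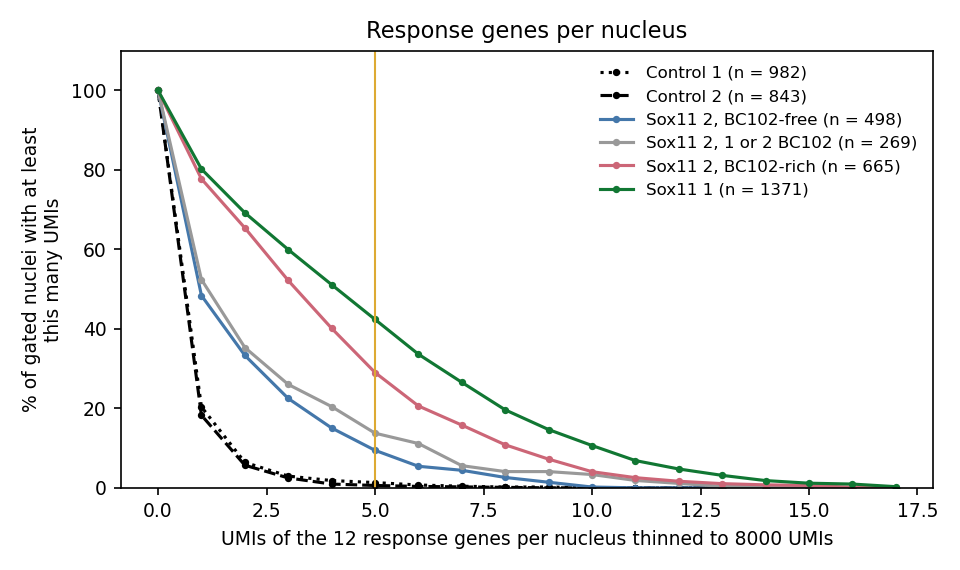
Summed thinned UMIs of the 12 genes higher in Sox11 libraries, per nucleus (x axis), against the percentage of gated nuclei with at least that many UMIs (y axis, vertical line at 5 UMIs), on each BC102 side and in the other libraries. At 5 UMIs the lines stand at 29.0% for rich nuclei, 9.44% for free nuclei, 42.4% for the first Sox11 library and 1.32% and 0.593% for Control.

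By amount of BC102 this sum averaged 1.43 at 0 UMIs, 1.58 at 1, 2.67 at 2, 3.18 at 3 to 5, 3.24 at 6 to 10, 3.04 at 11 to 20, 2.92 at 21 to 40 and 4.72 at 41 or more. It was therefore about level from 3 to 40 BC102 UMIs and higher in the 96 nuclei above that. The nuclei with 1 and with 2 BC102 UMIs were unlike each other: 9.77% of the 215 with 1 (6.15% to 14.5%) and 29.6% of the 54 with 2 (18.0% to 43.6%) had a sum of 5 or more, the first near the free and the second near the rich nuclei. The share with a sum of 5 or more was 42.7% in those 96 nuclei (32.7% to 53.2%) and 24.3% in the 177 nuclei with 21 to 40 (18.2% to 31.3%).

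Among the single genes of that set, 11 could be compared and all 11 had ratios above 1, with 7 past 2-fold higher (0.448% of all genes tested). Besides those already described, Kcnk2, a background potassium channel, stood at 24.1 CPM in rich and 9.54 CPM in free nuclei (ratio 2.52, 1.74 to 3.73). The Kcnk2 ratio was 1.28 among nuclei with Xist only and 4.64 among nuclei with Y-linked transcripts only. Against nuclei with 1 or 2 BC102 UMIs it was 1.73. Tox3, an HMG box protein, stood at 28.9 and 14.8 CPM, Soga1 at 24.1 and 12.6, and Cald1, caldesmon, an actin-binding protein, at 19.2 and 10.5. The Cald1 ratio of 1.82 was 0.982 against nuclei with 1 or 2 BC102 UMIs. Etv4, an Ets transcription factor, was the exception in size: 8.27 CPM in rich and 5.77 in free nuclei, against 36.5 in the first Sox11 library and 2.04 and 1.19 in Control. Its ratio of 1.43 had an interval that includes 1 (0.847 to 2.49). All 12 genes were higher on the free side than in either Control library (37.9% of all genes tested). They were chosen on libraries that include these nuclei, so this count is no support.

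The 12 genes lower in Sox11 libraries summed to a mean of 1.56 UMIs per rich and 2.51 per free nucleus, against 1.58 in the first Sox11 library and 4.65 and 4.95 in Control. The ratio of the sums was 0.622 (0.572 to 0.676). Of the 8 that could be compared, all were below 1 and 2 passed 2-fold lower (0.295% of all genes tested): Pde7b, a phosphodiesterase of cAMP, at 10.2 and 22.8 CPM, and Blnk, an adaptor of B cell receptor signalling, at 8.65 and 19.1. Ratios of 3 of the 8 crossed 1 under an alternative: Prkd1, a protein kinase, reached 1.32 and Vwc2 1.08 against nuclei with 1 or 2 BC102 UMIs, and Rab26, a vesicle GTPase, 1.15 with thinning to 5000 UMIs. Alcam, an adhesion molecule, differed little between the sides (43.6 and 49.4 CPM, ratio interval 0.726 to 1.07), although the free side was far from the 118 and 123 CPM of Control. Syt2, a calcium sensor of vesicle release, likewise stood at 17.1 and 23.3 CPM against 51.3 and 47.2 CPM in Control. All 12 lower genes were below either Control library on the free side (33.5% of all genes tested), which follows in part from how they were chosen.

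Of 44 genes of immature and growing neurons, 35 could be compared; their median log2 ratio was 0.33 against 0.03 over all genes, and 32 had ratios above 1. At least 1.5-fold, 11 were higher (3.21% of all genes tested) and 0 lower (2.1%). Members of this and the following lists were chosen with earlier results of these data known, so these values are no independent evidence. Dpysl3, a collapsin response mediator of growth cones, stood at 182 CPM in rich and 91.9 CPM in free nuclei, against 182 in the first Sox11 library and 26.6 and 31.1 in Control. Among members singled out after their values were seen, Dcx, doublecortin, a microtubule protein of migrating neurons, had a ratio of 1.62, Dpysl5 of 1.75 and Stmn1, stathmin, of 1.55. Fat4, an atypical cadherin, passed 2-fold with a ratio of 2.18, which was 1.52 in another thinning draw. Other growth genes were level or lower: Gap43, a growth cone protein singled out in the same way, had a ratio of 0.966, and Stmn3 one of 0.801 (0.714 to 0.899), which was 1.07 in nuclei with Xist alone.

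**Figure D5:**
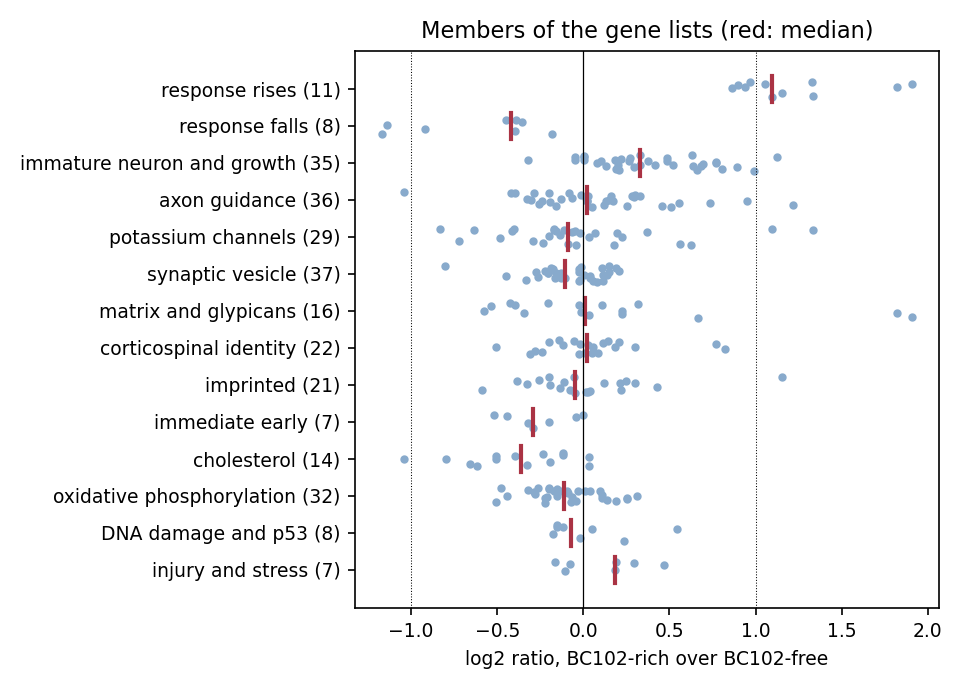
Log2 ratio of rich over free nuclei (x axis) for the compared members of each gene list (y axis), 1 point per gene, with the list median in red and dotted lines at 2-fold. The medians of the growth list (0.33) and of the 12 genes higher in Sox11 libraries (1.10) lie to the right of the median over all genes (0.03). The lists were chosen with earlier results of these data known.

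Guidance, channel and matrix lists held single genes that stood apart while their medians stayed near that of all genes. Of all genes tested, 0.448% were past 2-fold higher and 0.295% past 2-fold lower. Among 36 axon guidance genes (median log2 ratio 0.02), Sema6c, a transmembrane semaphorin, stood at 17.5 CPM in rich and 7.53 CPM in free nuclei. Its ratio of 2.32 was 1.36 among nuclei with 8000 to 16000 gene UMIs and 1.39 against nuclei with 1 or 2 BC102 UMIs. Its relative Sema6a stood at 29.1 and 15.1 CPM. Unc5d was past 2-fold lower, a call that its values of 0.773 and 0.987 under alternatives ended. Among 29 potassium channel genes (median -0.09), Kcnk2 and Kcnmb2 were past 2-fold higher, though neither stayed there under all alternatives. Kcnk9, an acid-sensitive background channel, stood at 11.8 and 21.1 CPM. Kcnc2, a fast Kv3 channel, stood at 21.8 and 35.9 CPM, a direction that turned against nuclei with 1 or 2 BC102 UMIs (ratio 1.38). Among 16 matrix and perineuronal net genes (median 0.01), Vcan and Gpc2 were the 2 past 2-fold, both higher. Vcan, Gpc2, Kcnk2 and Kcnmb2 also belong to the 12 genes chosen as higher in Sox11 libraries. None of 37 synaptic vesicle genes (median -0.10) passed 2-fold, and Sv2c, a vesicle glycoprotein, had the lowest ratio of them, 0.574.

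Cholesterol, activity and respiration genes had medians below that of all genes. Of 14 cholesterol genes compared, 12 had ratios below 1 (median log2 ratio -0.36). Acat2, an acetyl-CoA acetyltransferase, was level at 14.1 CPM in rich and 13.8 CPM in free nuclei. The 7 immediate early genes compared had a median of -0.29, and Homer1, a postsynaptic scaffold with an activity-induced form, stood at 330.1 CPM in rich and 473 CPM in free nuclei, inside the 548 and 316 CPM of the Control libraries. The 32 nuclear oxidative phosphorylation genes had a median of -0.11 with 0 past 2-fold in either direction (0.448% of all genes tested higher and 0.295% lower).

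Among lists of damage and infection responses, the injury and stress list had a somewhat higher sum in rich nuclei, with mixed members. Of its 7 genes compared, 4 had ratios above 1 and 3 below, with a median log2 ratio of 0.18. The summed level was 304 CPM in rich and 272 CPM in free nuclei, a ratio of 1.12 (1.03 to 1.21). In Control it was 236 and 261 CPM. Most of the sum on both sides was Klf7, a transcription factor of axon growth, at 169.9 and 139 CPM (ratio 1.23, 1.10 to 1.37). Its relative Klf6 stood at 20.9 and 15.1. The 8 p53 and DNA damage genes compared had a median of -0.07. In both lists 0 genes were past 2-fold (0.448% of all genes tested higher and 0.295% lower). Of 25 interferon and antiviral genes in the table, 1 was abundant enough to compare, Stat2, at 16.7 CPM in rich and 20.3 CPM in free nuclei. Summed over the 25 they stood at 45.3 and 50.5 CPM, against 55.0 and 60.1 CPM in Control. Of 21 imprinted genes, 1 was past 2-fold higher (0.448% of all genes tested), and the median was -0.05. That gene was Zfp57, which the list holds as their regulator and which is also among the 12 genes chosen as higher in Sox11 libraries.

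The nuclei of each sex gave the same directions. Among nuclei with Xist and no Y-linked transcript and among those with the reverse, all 15 higher genes had ratios above 1 and all 15 lower genes ratios below 1. These are parts of the same nuclei that chose the genes, so the direction is no independent support. Vcan had ratios of 3.19 and 5.25, Gpc2 of 3.07 and 5.11, and Zfp57 of 1.55 and 3.98, in that order. These ratios moved with the thinning: in another draw of the same nuclei Vcan had 8.04 in the second and Zfp57 1.36 in the first. The summed ratio of the 12 genes higher in Sox11 libraries was 1.86 in the first and 2.88 in the second, each from a thinning draw of its own. The difference between the sexes was not tested, since the number of animals is not known.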

How the data were processed

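The authors deposited, per sample, a filtered matrix of raw UMI counts per gene and nucleus, used here as counts. Per the file headers they were made with Cell Ranger 7.1.0 (both Control libraries), 7.2.0 (Sox11 1) and 8.0.0 (Sox11 2), while the submitters' processing notes name 7.0.1 and mm10. The sources used here state neither the handling of intronic reads nor the strand setting, so overlapping antisense genes cannot be told apart. Libraries held 34215523 to 61679959 gene UMIs. Added vector entries (13 in each Sox11 table, 2 in Control 2, 0 in Control 1) were left out of depth, thinning and folds.

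Each gated nucleus was thinned without replacement to 8000 gene UMIs (random seed 1), UMIs were summed per side and scaled to CPM. A gene was compared where the mean of both sides was at least 10 CPM, and past the fold means a ratio of at least 2 or at most 0.5. Sums carry exact Poisson, shares exact Clopper-Pearson and ratios exact conditional 95% intervals, which cover counting error only. Where a share is 0, the limit that 3 counts allow is given as well. There are no p-values, since nuclei of 1 library are not replicates. The named genes are the 15 highest and 15 lowest ratios at a mean of at least 20 CPM without sex and vector genes, all 24 genes of the Sox11 response lists, and the 2 highest and 2 lowest of each other list, plus the gating genes and Sox11. The 6 genes of the sex list were added as well. Igsf9, Dcx, Dpysl5, Stmn1 and Gap43 were named after their values were seen. Some genes that the rule names are not reported here. Members and lists were chosen with earlier results of these data known. Doublets were not removed in the main values, and an alternative left out the highest scrublet scores (154 of 4383 barcodes), since the caller's own threshold marked 1.21%. Gene positions come from GENCODE M21, which matched 32158 of 32285 identifiers. The thinning and ratios were tested on simulated data. Python 3.11.15, numpy 2.4.6, scipy 1.17.1, pandas 2.3.3 and scanpy 1.11.5 were used.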

Additional observations from a re-analysis of the deposited data

How the results depend on the processing

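The ratio of the summed 12 genes higher in Sox11 libraries stayed above 1, and that of the 12 lower genes below 1, under all 12 alternatives that gave these sums. The filter and fold settings gave counts only. Main counts were 38 higher and 25 lower. They were 61 and 38 when nuclei were thinned to 5000 UMIs, 103 and 104 among nuclei with 8000 to 16000 gene UMIs, 73 and 51 among nuclei with Xist only, 131 and 87 among nuclei with Y-linked transcripts only, 8 and 6 at a mean of 30 CPM, 1005 and 1236 without a filter, 272 and 178 at 1.5-fold, and 17 and 9 with BC102 of 1 or more on the rich side. With nuclei of 1 or 2 BC102 UMIs in place of the free side, an alternative chosen after seeing the data, 13 were lower. The summed higher genes had a ratio of 2.01 with BC102 of 1 or more, 1.82 in the shallower nuclei, 1.86 with Xist only, 2.88 with Y-linked transcripts only and 1.83 against nuclei with 1 or 2 BC102 UMIs, and the summed lower genes 0.728 with BC102 of 1 or more and 0.726 with at least 2 of the 3 marker genes. The cause was not tested. Without the nuclei that held both Xist and a Y-linked transcript, also added later, the counts were 46 and 34. Of 1296 values for 108 named genes, 1093 stayed within the main interval and 203 left it. The 108 include the 6 genes of the sex list. In nuclei chosen by Xist and Y-linked transcripts, that choice bears on the values of these sex genes. Where a sex gene had 0 UMIs on both sides, its ratio stands at the limit of 3 counts. A ratio crossed 1 in 135 of the values, 78 inside the main interval and 57 outside it, the latter in 31 genes. Of the 30 genes with the highest and lowest ratios, 1 crossed 1, Gm32647 (0.765 in shallower nuclei and 0.741 without high doublet scores).

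No paired analysis was possible because both sides come from 1 library and no result comes from a test. Neither side has a replicate to leave out. Another thinning draw shared 21 of 38 higher and 11 of 25 lower genes. Of the genes not shared, 10 of 17 and 10 of 14 had a mean under 20 CPM, as did 9 of 21 and 7 of 11 of those shared.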
